A study of Mus musculus with 35 samples.

Results

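The genes described here carry water, ions and glutamate across the astrocyte membrane, couple astrocytes to each other, or mark the astrocyte lineage. They are Aqp4, Gja1, Gjb6, Slc1a2, Slc1a3, Slc4a4, S100b, Aldh1l1, Sox9 and Fgfr3, 10 of the 18194 genes that the array annotation names alone on a probe set. A probe set, the group of short probes that reads 1 transcript region, was taken when it named exactly 1 gene and that gene was one of these. This gave 35 probe sets of 45101, and 1 further probe set that names Slc1a2 together with another gene was left out. Of the 35, 26 passed the filter on dim and invariant probe sets and 9 did not, so counts of calls below refer to the 26.

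Expression was measured in lumbar motor neurons cut out of frozen spinal cord with a laser, 300 cells for each array. Each of the 35 arrays held the amplified RNA of a single female mouse. The groups were wild-type C57BL/6J mice (WT) aged 11 weeks (n = 6), untreated SOD1G93A mice aged 11 weeks (n = 8), WT mice aged 15 weeks (n = 7), SOD1G93A mice aged 15 weeks that received vehicle from a subcutaneous osmotic pump (n = 7), and SOD1G93A mice aged 15 weeks whose pump delivered G-CSF as filgrastim (n = 7). SOD1G93A mice (strain B6.Cg-Tg(SOD1-G93A)1Gur/J, here SOD1) overexpress a mutant human SOD1 in many cell types and are a model of amyotrophic lateral sclerosis, in which week 11 precedes motor signs and week 15 is symptomatic. The sources used here mention no pump in WT mice or at week 11.

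Astrocytes are the glial cells that clear potassium, water and glutamate from the space around neurons, and they act as a network because connexins join their cytoplasm. Their fine processes wrap motoneuron cell bodies, so that a laser cut around a motoneuron can carry astrocyte membrane and RNA with it. In spinal cord of SOD1 mice, loss of the glutamate transporter GLT-1 and a rise of glial fibrillary acidic protein in astrocytes are widely described.

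The dissected cells carried the neuronal label, since 11 of 11 neuronal marker genes lay above the array median on all 35 arrays. Of 11 motoneuron markers, 8 did so, and Chat, the enzyme of acetylcholine synthesis, was dim, with group medians from 2.78 to 3.31. Transcripts of the 10 genes were measured as well, though not all of these genes are confined to astrocytes. The brightest probe set of 7 of the 10 genes lay above the array median on all 35 arrays, and that of 10 of 10 lay above the 20th centile of intensity. Gjb6 was above the array median on 33 arrays, Sox9 on 25 and Aldh1l1 on 23. Markers of oligodendrocytes (9 of 11 genes above the median on all arrays), endothelial cells (5 of 8) and microglia (5 of 13) were measured too. The array medians were low, from 3.19 to 3.47, beside 2.40 for the 20th centile. Taking the brightest probe set of a gene favours passing them, and the share over all genes is not given. These counts therefore show that signal was present and not how much RNA each cell type gave. In such pieces of tissue, fewer cells of a type and less RNA per cell cannot be told apart. WT mouse 6 of week 11 and vehicle-treated mice 5 and 3 are called the arrays that stand apart, because their highest correlation with any other array (0.910, 0.911 and 0.916) was lower than that of each of the other 32 arrays. Calls that were lost or gained without these 3 are given with each comparison.

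The promoters of Gja1 and Gjb6 are shown because these genes encode the partner connexins of the astrocyte gap junction and, as described below, varied together from mouse to mouse. The stretches are the 250 bases before the annotated start in RefSeq (GRCm38.p6), read 5′ to 3′ on the gene's strand, chr10:56377050-56377299 on the plus strand for Gja1 and chr14:57133612-57133861 on the minus strand for Gjb6. Capitals mark the 1 match to the AP-1 motif TGANTCA, which is its own reverse complement.
Gja1: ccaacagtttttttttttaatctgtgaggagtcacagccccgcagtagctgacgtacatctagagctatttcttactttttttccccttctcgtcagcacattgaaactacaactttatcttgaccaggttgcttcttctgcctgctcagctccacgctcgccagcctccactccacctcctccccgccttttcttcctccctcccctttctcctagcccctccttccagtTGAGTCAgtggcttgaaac
Gjb6: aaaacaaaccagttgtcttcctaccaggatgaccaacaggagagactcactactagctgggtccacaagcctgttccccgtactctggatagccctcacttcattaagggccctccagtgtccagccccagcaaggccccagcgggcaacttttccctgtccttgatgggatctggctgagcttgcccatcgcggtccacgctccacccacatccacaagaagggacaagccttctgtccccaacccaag
The match in Gja1 begins 19 bases before the start, and Gjb6 has none. Of 32851 mouse promoter windows of the same length, 6.75% hold this motif. Of the 10 windows matched to 8 of the genes, 1 holds it. A match to letters is a description and not a bound site.

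The levels of the channels and connexins are given first, as log2 intensities with the lowest, median and highest mouse of each group. Levels of different probe sets cannot be compared as amounts of RNA. Aqp4, the water channel of astrocyte end feet (probe set 1434449_at), was at 7.21, 8.34 and 8.75 in WT and at 7.55, 8.46 and 8.78 in SOD1 mice of week 11. At week 15 it was at 8.44, 8.83 and 9.40 in WT, at 7.61, 9.07 and 9.54 with vehicle, and at 7.58, 7.81 and 9.22 with G-CSF. The groups overlapped, and most G-CSF mice lay low, with 1 mouse far above them.

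Gja1 encodes connexin 43, the main astrocyte gap junction protein. Its brightest probe set (1437992_x_at) was at 7.60, 8.68 and 9.45 in WT and at 8.01, 8.96 and 9.58 in SOD1 mice of week 11. In mice of week 15 it was at 8.98, 9.38 and 9.83 in WT, at 8.61, 9.54 and 10.1 with vehicle, and at 8.36, 9.31 and 9.74 with G-CSF. All 5 groups overlapped. Gjb6, which encodes connexin 30, was dimmer, with 3.46, 4.21 and 5.16 in WT and 3.76, 4.38 and 5.36 in SOD1 mice of week 11. Values of week 15 were 3.35, 4.19 and 4.62 in WT, 3.18, 4.55 and 6.66 with vehicle, and 2.88, 3.86 and 4.39 with G-CSF. Its vehicle group had the widest spread, reaching from below the WT mice to well above them.

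The glutamate transporters gave differences of opposite sign at week 11, and neither passed the test. Slc1a2, which encodes GLT-1 (1438194_at), was at 4.43, 5.86 and 6.77 in WT and at 6.17, 6.95 and 7.49 in SOD1 mice of week 11. Mice of week 15 were at 6.84, 7.20 and 7.99 in WT, at 5.79, 7.32 and 7.88 with vehicle, and at 6.36, 6.80 and 7.15 with G-CSF. The WT mice of week 11 lay lowest, and only they had a mouse below 5. Slc1a3, which encodes GLAST (1443749_x_at), was at 5.54, 6.05 and 6.86 in WT and at 4.56, 5.44 and 5.84 in SOD1 mice of week 11. At week 15 it was at 4.97, 6.38 and 6.90 in WT, at 5.56, 6.29 and 7.53 with vehicle, and at 5.20, 6.26 and 7.51 with G-CSF. Here the SOD1 mice of week 11 were the low group. The other Slc1a3 probe sets were dim, with means over all arrays from 2.12 to 2.74. What is said of Slc1a3 therefore rests on 1443749_x_at alone.

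Slc4a4 encodes the sodium bicarbonate cotransporter NBCe1. Its brightest probe set (1434096_at) was at 7.12, 7.94 and 8.50 in WT and at 6.93, 7.81 and 8.18 in SOD1 mice of week 11. Mice of week 15 were at 6.65, 7.53 and 8.24 in WT, at 3.49, 6.54 and 7.35 with vehicle, and at 3.43, 6.71 and 7.41 with G-CSF. Far below every WT mouse lay 1 vehicle-treated mouse at 3.49 and G-CSF mice at 3.43 and 3.87, and the other treated SOD1 mice were within the WT range or just under it. S100b, a calcium-binding protein that oligodendrocytes and some neurons also express (1434342_at), was the brightest probe set, at 10.01, 10.9 and 11.2 in WT and at 10.6, 11.0 and 11.2 in SOD1 mice of week 11. At week 15 it was at 10.5, 10.7 and 10.9 in WT, at 9.89, 10.1 and 10.7 with vehicle, and at 9.80, 10.3 and 10.8 with G-CSF. Most treated SOD1 mice lay below the WT mice of their age, with overlap.

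The lineage genes had low or middling levels. Fgfr3, a receptor of fibroblast growth factors that astrocytes keep from their precursors (1421841_at), was at 5.98, 6.78 and 7.45 in WT and at 6.21, 6.76 and 7.38 in SOD1 mice of week 11. In mice of week 15 it was at 5.72, 6.81 and 7.32 in WT, at 5.81, 6.22 and 7.14 with vehicle, and at 4.67, 5.91 and 6.56 with G-CSF. The G-CSF group was lowest and overlapped the others. Group medians of Aldh1l1, a folate enzyme used as an astrocyte marker (1424400_a_at), ran from 3.22 with vehicle to 4.05 in SOD1 mice of week 11. Group medians of Sox9, the transcription factor of astrocyte identity (1451538_at), ran only from 3.29 in WT of week 11 to 3.59 in WT of week 15.

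**Figure D1:**
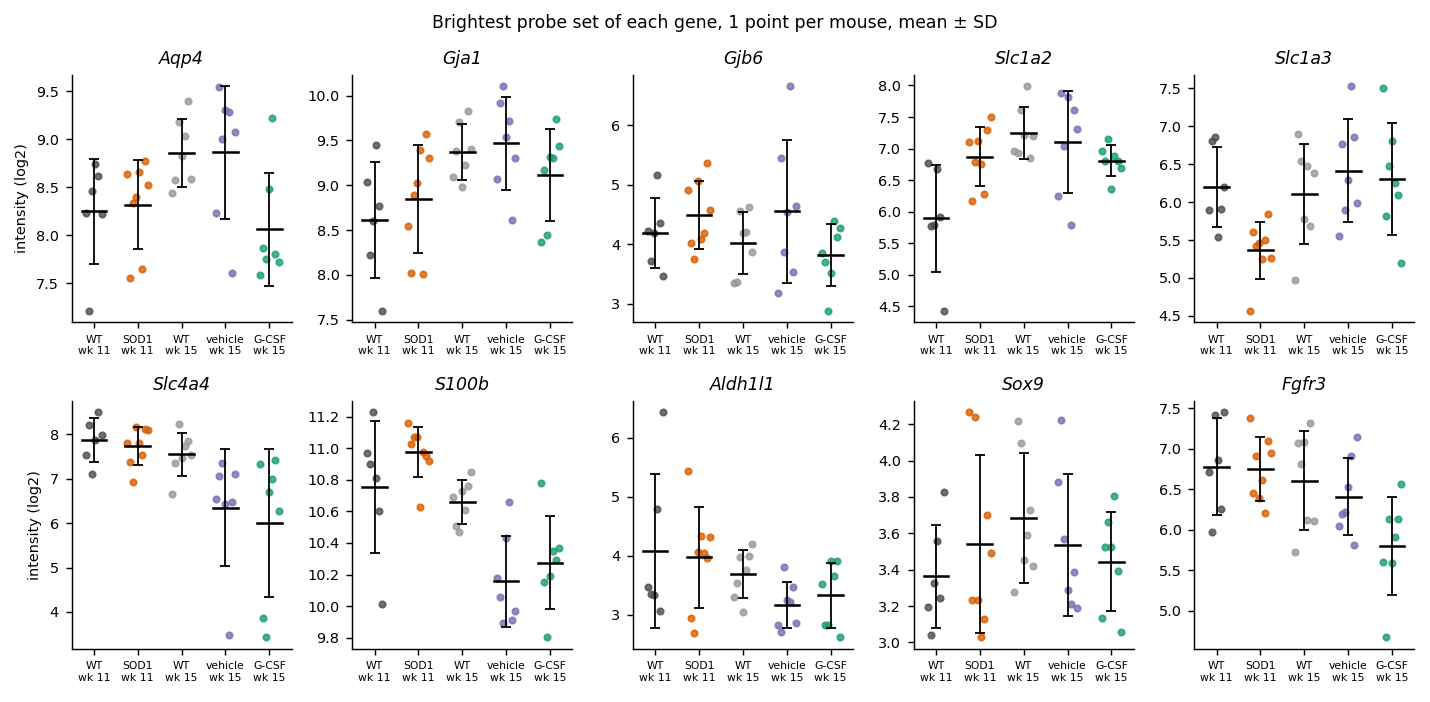
Log2 intensity of the brightest probe set of each of the 10 genes (vertical axis, its own range in each panel) in the 5 groups (horizontal axis), with 1 point per mouse, a bar at the mean and whiskers of 1 SD. The groups overlap in nearly every panel, and Slc4a4 has 3 treated SOD1 mice below 4.

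No probe set of these genes was called between SOD1 and WT mice of week 11. A probe set was called in limma if it differed by at least 1.5-fold, with a p under 0.05 that stayed under 0.1 once adjusted by Benjamini-Hochberg over the 31320 tested. Of the 26 probe sets, 0 were called, against 1.32% of all probe sets, and 4 had an unadjusted p under 0.05, a share of 15.4% against 11% of all. The median difference of the 26 was -0.05 on the log2 scale, beside -0.01 over all. Slc1a2 differed most among the brightest probe sets, by 0.98 (SE 0.31, 95% interval 0.35 to 1.61, limma adjusted p = 0.148). It was called under the methods' Tukey comparison and with array weights, and also without WT mouse 1 (1.16) or WT mouse 4 (1.14) of that week or without vehicle-treated mouse 5 (0.98). Under the Tukey comparison the p was that of the pair, but the adjusted p was that of a test over all groups. Slc1a3 differed by -0.84 (SE 0.32, interval -1.48 to -0.19, limma adjusted p = 0.268).

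For the other 8 genes the week 11 difference at the brightest probe set lay between -0.14 and 0.31. The interval for Aqp4 was -0.51 to 0.65, for Gja1 -0.33 to 0.80 and for Gjb6 -0.46 to 1.08. The interval for S100b, -0.09 to 0.54, was the only one of these 4 that left out a 1.5-fold change in either direction. This is said of 1434342_at alone, since the second S100b probe set, 1419383_at, averaged 10.05 in WT and 9.56 in SOD1 mice. Without WT mouse 6 of that week, the differences of Gja1, Gjb6 and S100b (0.23, 0.31 and 0.23) were 0.03, 0.17 and 0.08.

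At week 15, 0 of the 26 probe sets were called between vehicle-treated SOD1 and WT mice, against 5.87% of all probe sets. An unadjusted p under 0.05 was reached by 5, a share of 19.2% against 19.5% of all. S100b (1434342_at) had the smallest adjusted p and missed only the fold change, with a difference of -0.50 (SE 0.15, interval -0.81 to -0.19, limma adjusted p = 0.0576). Slc4a4 (1434096_at) differed by -1.20 (SE 0.52, interval -2.25 to -0.14, limma adjusted p = 0.191), and its second probe set 1452071_at by -0.98 (SE 0.43, limma adjusted p = 0.194). A further Slc4a4 probe set, 1426432_a_at, was not lower, with means of 5.07 in WT and 5.15 with vehicle. Vehicle-treated mouse 5, one of the arrays that stand apart, was the lowest for Slc4a4 at 3.49, and without it the difference of 1434096_at was -0.72. Leaving out vehicle-treated mouse 1 called Slc4a4 (1452071_at, -1.21), and leaving out WT mouse 6 of week 11, which changes only the shared spread, called Gja1 (1415800_at, -1.08).

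Aqp4, Slc1a2 and the brightest Gja1 probe set had differences near 0 in the same comparison. The difference for Aqp4 was 0.004 (SE 0.28, interval -0.57 to 0.58). That for Gja1 was 0.09 (interval -0.47 to 0.65), against -1.08 for 1415800_at of the same gene, and that for Slc1a2 was -0.15 (interval -0.77 to 0.47). Slc1a3 differed by 0.31 (interval -0.33 to 0.95), or by 0.12 without vehicle-treated mouse 5 or WT mouse 1. Gjb6 differed by 0.53, with an interval of -0.23 to 1.29 that holds both no change and a rise of more than 1.5-fold. Without vehicle-treated mouse 5 it differed by 0.18, and without the 3 arrays by 0.25. The neuronal markers averaged 10.15 in WT and 9.77 with vehicle at this age, and the microglial markers 3.93 and 4.86, and their part in these values was not tested.

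G-CSF was compared with vehicle in SOD1 mice of week 15, to ask whether treatment moved these genes. Of the 26 probe sets 0 were called, against 0.0383% of all (12 of 31320), so few calls were made anywhere. Differences were below 0 for 18 of the 26 probe sets, with a median of -0.11 beside 0.00 (-0.00091) over all. Aqp4 had the largest difference among the brightest probe sets, -0.81 (SE 0.28, interval -1.38 to -0.23, limma adjusted p = 0.414). Gjb6 differed by -0.73 (SE 0.37, limma adjusted p = 0.618), or by -0.38 without vehicle-treated mouse 5, and Fgfr3 by -0.61 (SE 0.28, limma adjusted p = 0.562). The second Slc4a4 probe set went the other way, by 1.04 (SE 0.43, limma adjusted p = 0.509).

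G-CSF-treated SOD1 mice were also compared with WT mice of week 15, again with 0 of 26 probe sets called, against 1.1% of all. Both comparisons share the treated mice, so they are not independent. Fgfr3 differed by -0.81 (SE 0.28, limma adjusted p = 0.194), Aqp4 by -0.80 (SE 0.28, limma adjusted p = 0.198) and Slc4a4 by -1.54 (SE 0.52, limma adjusted p = 0.170). Slc4a4 (1434096_at) was called in this comparison without the 3 arrays that stand apart, at an unchanged difference of -1.54, as it was without vehicle-treated mouse 5 alone (-1.54) or G-CSF mouse 1 (-1.77). The fall was not seen at the next brightest Slc4a4 probe sets. Means in WT and G-CSF mice were 5.76 and 5.82 for 1452071_at, and 5.07 and 5.26 for 1426432_a_at. Aqp4 was called without G-CSF mouse 5 (-0.995).

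**Figure D2:**
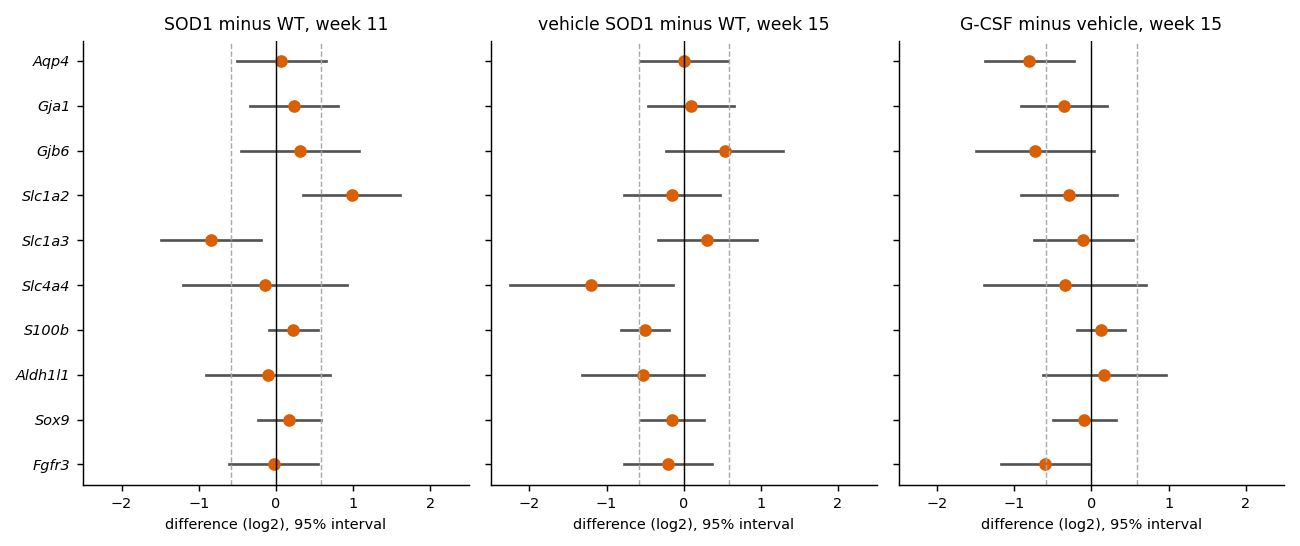
Difference in log2 intensity at the brightest probe set of each gene (points) with its 95% interval (lines) for 3 comparisons, where dashed lines mark a 1.5-fold change either way. None of the 30 differences shown was called, and most intervals reach past a dashed line.

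S100b was the 1 probe set of 26 called for a SOD1 effect that differed between the weeks, against 2.9% of all. At week 11 the SOD1 difference was 0.23 and at week 15, with vehicle, it was -0.50, so that the effect of week 15 minus that of week 11 was -0.73 (SE 0.22, limma adjusted p = 0.0906). The call held in 15 of 35 fits that left out 1 mouse, with differences from -0.82 to -0.58, and was lost without the 3 arrays that stand apart (-0.63), after quantile normalization (-0.56) and with the 18S covariate described below (-0.76). The second S100b probe set, 1419383_at, gave 0.21 (SE 0.26, limma adjusted p = 0.687) for the same quantity, and 0.07 without the 3 arrays.

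In WT mice alone, Slc1a2 (1438194_at) was higher at week 15 than at week 11. It was the 1 of 26 probe sets called, against 5.55% of all, with a difference of 1.36 (SE 0.32, interval 0.71 to 2.00, limma adjusted p = 0.0101). The highest WT mouse of week 11 was at 6.77 and the lowest of week 15 at 6.84, so the groups did not overlap, which held for 2.98% of all probe sets. The call held in 35 of 35 fits without 1 mouse, and Gja1 was called as well without WT mouse 4 of week 11 (1437992_x_at, 0.93). Age cannot be told apart from the cohort here, and the arrays differed in more than age, since the 18S ribosomal control probe set averaged 10.1 in WT of week 11 and 13.1 in WT of week 15. With that control as a covariate the difference was 2.09 and no longer called. The 18S values did not overlap, with 10.9 the highest in WT of week 11 and 12.7 the lowest in WT of week 15. The covariate cannot separate 18S from week here, so the lost call decides nothing.

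Between vehicle-treated SOD1 mice of week 15 and SOD1 mice of week 11, 7 of the 26 probe sets were called, beside 25.5% of all. The share among the members, 26.9%, was near that background. Slc1a3 (1443749_x_at) was higher at week 15 by 1.05 (SE 0.30, limma adjusted p = 0.00996). S100b (1434342_at) was lower, at -0.82 (SE 0.15, limma adjusted p = 0.000136), and Slc4a4 (1434096_at) was lower, at -1.38 (SE 0.50, limma adjusted p = 0.0368). The latter call was lost without vehicle-treated mouse 5 (-0.90), without the 3 arrays that stand apart (-1.01), after quantile normalization (-1.10) and under the methods' Tukey comparison. Without the 3 arrays Aldh1l1 was called as well (1424400_a_at, -0.95). Age, the pump and the 18S level (10.7 and 12.8) changed together between these groups and cannot be told apart. With the 18S covariate none of the 7 was called, with Slc1a3 at -0.05, Slc4a4 at 0.20 and S100b at -0.74. Aqp4 was then the 1 probe set called (1434449_at, 1.61). The share over all probe sets in that fit is not given. The 18S values of these groups did not overlap, with 11.2 the highest at week 11 and 12.4 the lowest at week 15. Such a covariate cannot separate 18S from week, so calls lost or gained with it decide nothing.

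The probe sets of a gene did not always tell the same story, and where they did not, the gene's direction is uncertain. In that last comparison Gja1 was called in both directions, at 0.62 (SE 0.27) for 1437992_x_at and at -1.16 (SE 0.47) for 1415800_at. The first of these calls held in 28 of 35 fits without 1 mouse (lost without SOD1 mice 1, 2 or 6 of week 11 or vehicle-treated mice 2, 3, 4 or 5, values from 0.50 to 0.76) and in 8 of 14 other settings, and was lost without the 3 arrays (0.44). The second held in 31 of 35 (lost without SOD1 mouse 7 of week 11 or vehicle-treated mice 3, 6 or 7, values from -1.39 to -0.91) and in 10 of 14 other settings, with -0.43 under the 18S covariate. Slc4a4 was likewise called down for 1434096_at and up, by 1.02 (SE 0.33), for 1426432_a_at. S100b was called down for 1434342_at only. Its second probe set, 1419383_at, was bright as well, was not called and averaged 9.56 in SOD1 mice of week 11 and 9.71 with vehicle. Slc1a2 was called up, by 0.68 (SE 0.30), for 1439940_at, while the brightest probe set gave 0.23 (SE 0.30). That call was lost without the 3 arrays (0.55) and held in 7 of 14 settings, and in 29 of 35 fits without 1 mouse (lost without SOD1 mice 1 or 3 of week 11 or vehicle-treated mice 1, 3, 5 or 6).

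Agreement was then measured from mouse to mouse, on values centred on their group means, in 31 relations with permutation tests. For Gja1, 1437992_x_at followed 1438945_x_at (r = 0.984), 1438650_x_at (r = 0.971) and 1438973_x_at (r = 0.849) closely, over 35 arrays. It followed 1415800_at less closely (r = 0.649, permutation adjusted p = 0.00139). The relations also set each Gja1 probe set against control probe sets, and there only 1415800_at with Gapdh passed (r = 0.579, permutation adjusted p = 0.0211, and rho = 0.366, which did not pass). An _x_at suffix means that some probes may match other sequences, which applies to the brightest probe sets of Gja1 and Slc1a3. An _a_at suffix means that the probes match several transcripts of the gene. WT mouse 6 of week 11 was at 3.01 for 1415800_at while the others of its group lay between 6.39 and 7.14.

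For S100b the correlation of both probe sets was -0.289 (permutation adjusted p = 0.271). The brightest Slc4a4 probe set correlated with the others at -0.224, -0.0454 and -0.316, and the brightest of Slc1a2 at 0.0366 and 0.0227, and none of these passed an adjusted p of 0.05. At week 11 the S100b probe sets gave SOD1 differences of opposite sign, 0.23 (SE 0.15) for 1434342_at and -0.49 (SE 0.18) for 1419383_at, neither called.

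**Figure D3:**
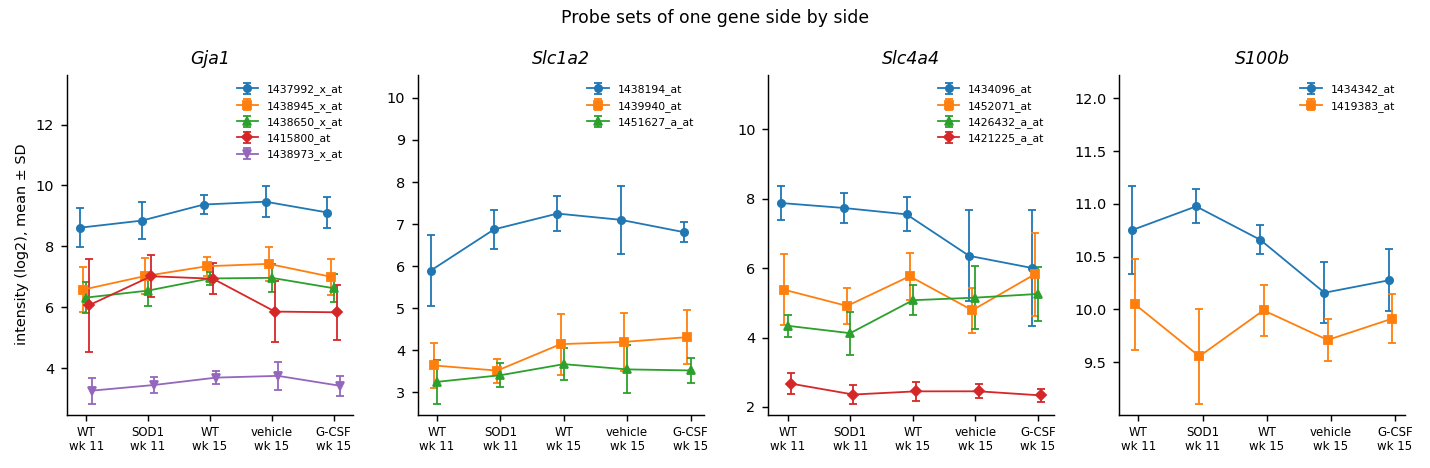
Mean log2 intensity ± SD by group for each filtered probe set of Gja1, Slc1a2, Slc4a4 and S100b, 1 line per probe set. The 4 probe sets of Gja1 with an _x_at suffix run in parallel, whereas 1415800_at of Gja1 and 1434096_at of Slc4a4 have lower means in both treated SOD1 groups than in WT of week 15, and 1452071_at of Slc4a4 has a lower mean with vehicle (4.79) than in WT (5.76) or with G-CSF (5.82).

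Aqp4, Gja1 and Gjb6 varied together between mice of the same group. All 45 pairs of the 10 genes were correlated at their brightest probe sets on values centred on group means, with values permuted within groups. Correlations ran from -0.314 to 0.64, with a median of 0.0954, and 3 pairs had an adjusted p under 0.05. Aqp4 and Gja1 correlated at r = 0.64 and rho = 0.66 (35 mice, permutation p = 0.00012, adjusted p = 0.0054). Aqp4 and Gjb6 correlated at r = 0.616 and rho = 0.666 (permutation p = 0.00082, adjusted p = 0.0166), and Gja1 and Gjb6 at r = 0.54 and rho = 0.581 (permutation p = 0.00111, adjusted p = 0.0166).

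The 3 relations were present at both ages. For Aqp4 and Gja1, r was 0.698 over the 14 mice of week 11 and 0.619 over the 21 of week 15. For Aqp4 and Gjb6 the values were 0.592 and 0.63, and for Gja1 and Gjb6 they were 0.655 and 0.512. Without the 2 mice farthest from the median of the first gene named, r was 0.59, 0.58 and 0.471, and without the 3 arrays that stand apart it was 0.694, 0.684 and 0.623. Without those arrays Gjb6 and Slc4a4 were a further pair with an adjusted p under 0.05, at r = 0.498 against -0.00837 with them. By contrast Gja1 and Slc1a2 correlated at 0.853 at week 11 and at -0.142 at week 15.

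**Figure D4:**
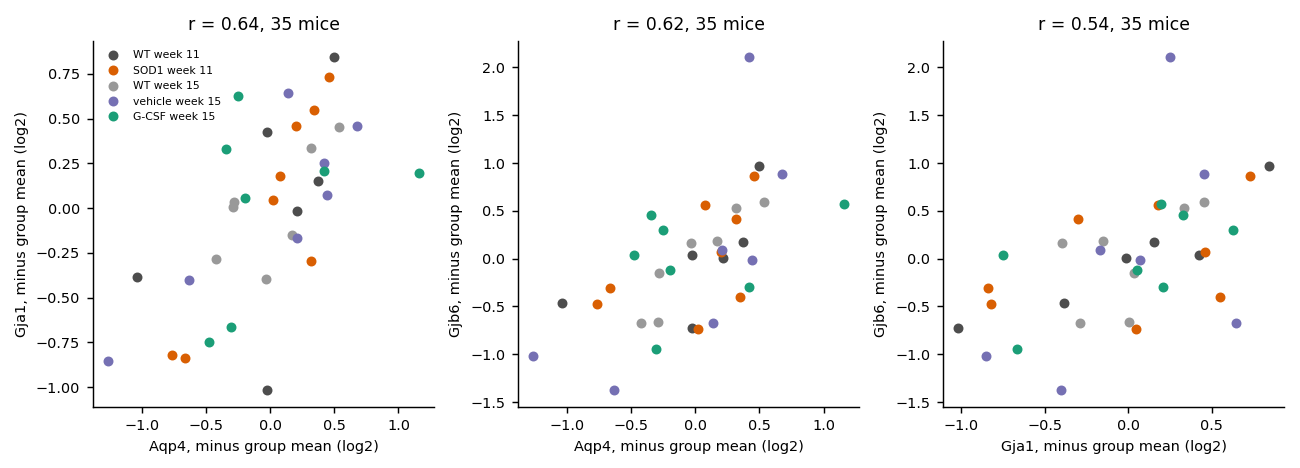
Log2 intensities of Aqp4, Gja1 and Gjb6 against each other, each minus the mean of its group, with 1 point per mouse coloured by group. Mice high for one of the genes tended to be high for the others, with r of 0.64, 0.62 and 0.54, and 1 vehicle-treated mouse lies far above the rest for Gjb6.

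The same genes were set against the mean of marker lists, within groups, in 21 relations. Aqp4, Gja1 and Gjb6 were picked by their correlations with each other on these same arrays, and the other members were not set against the lists. The p-values are not independent of that choice, and the results of these genes are not separate from each other. With 29 other astrocyte identity genes, r was 0.582 for Aqp4, 0.56 for Gja1 and 0.656 for Gjb6 (permutation adjusted p = 0.00847, 0.00847 and 0.00063). By week, 11 before 15, these were 0.464 and 0.648 for Aqp4, 0.866 and 0.323 for Gja1, and 0.775 and 0.611 for Gjb6. With 11 neuronal markers it was -0.0173, 0.131 and 0.309, and none of these passed. Gja1 also correlated with oligodendrocyte markers (r = 0.492, permutation adjusted p = 0.0348), and Aqp4 inversely with the 18S control (r = -0.449, permutation adjusted p = 0.0348). By rank alone, Aqp4 with oligodendrocyte markers (rho = 0.522, permutation adjusted p = 0.0169), Gja1 with endothelial markers (rho = 0.441, permutation adjusted p = 0.0417) and Gjb6 with the 18S control (rho = -0.473, permutation adjusted p = 0.0262) passed too. The amount of astrocyte RNA in a dissected sample was not measured, and its part in these correlations was not tested.

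Of 14246 other genes, those that most resembled the mean of the 10 genes over all 35 arrays were Selenop (r = 0.668), Rgs5 (r = 0.635) and Sgk1 (r = 0.628). They were followed by Acsl3, Olig1, Tshz3, 5830454E08Rik, Gpbp1, Pip4k2a and C2cd2, down to r = 0.568. Of these 10, 3 (Selenop, Rgs5 and Sgk1) stayed among the 10 most alike after group means were removed. These are correlations over arrays that share amplification and group differences, given as a description.

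Genes of reactive astrocytes, the state astrocytes enter after injury, are set beside these genes. Of 29 such genes tested, 3 were called higher in SOD1 than in WT mice of week 11, which are Gfap, the intermediate filament of reactive astrocytes (2.14, SE 0.57), the small heat shock protein gene Hspb1 (0.75) and the transcription factor gene Stat3 (0.64), and 0 were lower. The share called was 10.3%, beside 1.32% of all probe sets, and their median difference was 0.16, beside -0.01 over all. Here and in the lists below, each gene was read at its brightest filtered probe set. The share over all probe sets also counts dim ones and several per gene, so the shares are not like for like. After quantile normalization 0 of the 29 were called, a count given without the share over all probe sets in that setting. At week 15, 6 were called higher with vehicle than in WT, which are Gfap (3.70, SE 0.57), the hyaluronan receptor gene Cd44 (2.99), Timp1 (2.27), Vim (2.23), Tm4sf1 (1.34) and Sphk1 (0.62). This share was 20.7%, beside 5.87% of all, and no gene of the list was called lower. Between G-CSF and vehicle none was called, and S1pr3 (1.42), Timp1 (-1.17) and Cd44 (-1.15) differed most. Hspb1 and Stat3 were not called at week 15, with means of 9.04 and 5.91 with vehicle and 9.54 and 5.86 in WT. For Hspb1 the effect of week 15 minus that of week 11 was called, at -1.25 (SE 0.29, limma adjusted p = 0.0433). It was the 1 gene of the list called there, a share of 3.45% beside 2.9% of all probe sets. Vim and Cd44 are expressed by other cells as well, microglia included. Which cells gave the values of Hspb1 and Stat3 was not tested.

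Gfap was at 3.48, 4.58 and 6.24 in WT mice of week 15 and at 6.54, 8.69 and 9.50 with vehicle (1440142_s_at), with no overlap. A difference of the SOD1 effects of Gfap and of each of the 10 genes was tested by exact permutation over mice, two-sided and adjusted over 20 tests. At this Gfap probe set the effect exceeded that on each of the 10 genes. The excess was 1.16 to 2.98 at week 11 (exact adjusted p from 0.00389 to 0.0406). At week 15 it was 3.16 to 4.89 (exact adjusted p from 0.00146 to 0.00233). Gfap was set against these genes with its rise already known, so the outcome was largely settled beforehand. These p-values are not independent of that choice and add nothing to the call of Gfap itself. The other Gfap probe sets were dim and were not called, with 0.25 (SE 0.28) for 1426508_at and 0.49 (SE 0.16) for 1426509_s_at at week 15. Both values are below the 0.53 of Gjb6, so the excess over every gene holds for 1440142_s_at only. The _s_at suffix means that probes may match transcripts of several genes.

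Other genes of astrocyte transport and coupling were taken from a list of 26, of which 22 were tested. At week 11, 0 were called between SOD1 and WT, and the largest differences were those of Slc6a9 (0.58), Slc4a2 (0.57) and Clcn2 (0.56). At week 15, 3 were called higher with vehicle than in WT, which are the glucose transporter gene Slc2a1 (0.80, SE 0.15), also a marker of endothelial cells, the aquaglyceroporin gene Aqp9 (0.96, SE 0.30) and the anion exchanger gene Slc4a2 (0.72, SE 0.20), and 0 were lower. Their share, 13.6%, stands beside 5.87% of all probe sets, with a median of 0.11 beside 0.02. Kcnj10, the potassium channel Kir4.1 that lies beside Aqp4 in end feet, had medians of 7.42 and 7.67 in WT and SOD1 mice of week 11, and of 7.98, 8.11 and 7.86 in WT, vehicle and G-CSF mice of week 15. It was not called between SOD1 and WT, and is named here after its values were seen.

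Of 29 other astrocyte identity genes tested, 0 were called at week 11, where Dio2 (-0.83), Apoe (0.75) and Cst3 (0.70) differed most, and 3 were called lower with vehicle than in WT at week 15, which are the phospholipase gene Pla2g7 (-0.91, SE 0.24) and the nuclear factor genes Nfia (-0.64, SE 0.19) and Nfib (-1.30, SE 0.37), with 0 higher. The share called at week 15 was 10.3%, beside 5.87% of all probe sets, and the median of the list was -0.24, beside 0.02 over all. Nfia and Nfib are also expressed by neurons.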

How the data were processed

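The authors amplified the RNA of each mouse in consecutive T7 rounds before hybridization to Affymetrix arrays. They ran GCRMA in Expression Console (version not given in the sources used here), and what they deposited are log2 intensities for 45101 probe sets, 64 of them controls. The number of arrays limits the precision.

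The filter of the methods (above the 20th centile, 2.40, on at least 4 arrays, and an SD of at least the 30th centile, 0.241) kept 31320 probe sets without controls. The 35 arrays were fitted together in limma 3.58.1 under R 4.3.3, each group with its own mean. Benjamini-Hochberg adjustment ran over all probe sets of a contrast. Permutation tests used 100000 permutations (Python 3.11.15, scipy 1.17.1), two-sided, so the smallest p is 0.00001. Steps were tested on simulated data.

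The genes and lists were chosen with earlier results of these data known. The rule for named genes took every member, and from other lists the called genes or those differing most. From the family lists only called genes are given. Alternatives were Tukey's comparison, other normalizations, thresholds and filters, a replicate block, array weights, an 18S covariate, gene medians and leaving out mice. Gfap was set against the members after the data had been seen, as were 3 alternatives for the reactive list and the correlations without 3 arrays. The permutation tests of agreement between probe sets of a gene, first meant as a description only, and the relations of Aqp4, Gja1 and Gjb6 with marker lists, for which these genes were picked by their correlations with each other, were also added after the data had been seen.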

Additional observations from a re-analysis of the deposited data

Results flagged for a closer look

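Of 130 groups of 6 to 8 mice examined for a single far value, 11 held one, and chance alone flags about 1 in 20. In WT mice of week 11, mouse 2 lay low for Aqp4 (1434449_at, 7.21 against 8.23 to 8.75 in the others), mouse 6 low for Gja1 (1415800_at, 3.01 against 6.39 to 7.14) and mouse 6 high for Aldh1l1 (1424401_at, 2.83). In SOD1 mice of week 11, mouse 5 lay low for S100b (1434342_at, 10.6 against 10.9 to 11.2), mouse 1 low for Slc1a3 (1443749_x_at, 4.56 against 5.25 to 5.84) and mouse 2 high for Slc4a4 (1421225_a_at, 2.94).

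With vehicle, mouse 5 lay low for Slc4a4 (1434096_at, 3.49 against 6.42 to 7.35) and mouse 1 high for Slc4a4 (1452071_at, 6.18 against 4.18 to 4.74). Aldh1l1 (1424401_at) was high at 2.91 in G-CSF mouse 3 and at 2.76 in WT mouse 4 of week 15. Aqp4 (1447745_at) was high at 4.33 in G-CSF mouse 5, against 2.70 to 3.02. The SOD1 effect on S100b (1434342_at) differed between the weeks in limma, by -0.726, and the second S100b probe set did not show this.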

How the results depend on the processing

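Counts of called probe sets that moved by over 1.5 times were as follows, among the 26 except under changed filters and gene medians. Gene medians were counted over the 10 genes, and the fit without a filter over all 35 probe sets. For SOD1 against WT at week 11 (0), Tukey's comparison, array weights and the 18S covariate gave 1 each. For vehicle against WT at week 15 (0), the 18S covariate, a fold of 1.2 and no minimum fold gave 1 each. For G-CSF against WT (0), the 18S covariate gave 2 and leaving out the 3 arrays that stand apart gave 1. For the difference between the weeks (1), quantile normalization, the replicate block, gene medians and leaving out the 3 arrays gave 0, and with the 18S covariate the 1 call was Slc1a3 in place of S100b. For WT between the weeks (1), a fit on those groups only and array weights gave 3, and the 18S covariate and gene medians gave 0. For SOD1 between the weeks (7), Tukey's comparison gave 3, the 18S covariate 1 and gene medians 1, and the other alternatives 5 to 8. Counts in this paragraph stand without the share called over all probe sets under the same alternative. A lower count can therefore go with fewer calls on the whole array, and is not a result about these genes. With the 18S covariate, Slc1a3 (1443749_x_at) reversed to -0.0483 and Slc4a4 (1434096_at) to 0.203 in that comparison of SOD1 mice between the weeks. There 18S and week cannot be separated, so these reversals decide nothing. Leaving out each mouse gave 0 to 1 calls for SOD1 at week 11, 0 to 1 for vehicle against WT, 0 to 0 for G-CSF against vehicle, 0 to 1 for G-CSF against WT, 0 to 2, 1 to 3 and 4 to 8 for the last 3 comparisons. The causes were not tested. Of the genes most like the members, 3 were shared after centring. Quantile normalization gave 0 reactive genes at week 11. The replicate numbers do not pair the mice (66 pairs, r from -0.21 to 0.139, 1 over 0.1), and with the replicate block the S100b difference was -0.732 and no longer called. Tukey's comparison gives no value for the difference between the weeks. Of 2473 differences compared under 14 alternatives, called and uncalled together, 111 that were called in neither fit changed sign. GCRMA values near the 20th centile limit what can be seen, as for the dimmer Aldh1l1 probe set (1424401_at), above it on 15 of 35 arrays.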

Other observations

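Relatives of the transporters and connexins were measured on the same arrays. Gjd2, which encodes the neuronal connexin 36, was lower with vehicle than in WT mice of week 15 by -1.60 (SE 0.52, limma adjusted p = 0.0759). Of 8 connexin genes tested, 1 was called there, a share of 12.5% beside 5.87% of all probe sets. Slc4a3, an anion exchanger gene, was higher in SOD1 than in WT mice of week 11 by 0.69 (SE 0.19, limma adjusted p = 0.0793). Among 5 bicarbonate transporter genes tested, 1 was called there, a share of 20% beside 1.32% of all. Slc1a4, a transporter of neutral amino acids in the family of Slc1a2, was higher in WT mice of week 15 than of week 11 by 1.10 (SE 0.18, limma adjusted p = 0.000539), as Slc1a2 was. These were 2 of the 7 genes of that family tested, a share of 28.6% beside 5.55% of all.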
